A study of Mus musculus with 18 samples.

Results

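The genes described here are 32 listed markers of blood vessel endothelium, mural cells and fibroblasts, together with genes of the extracellular matrix that these cells secrete. They were taken by name from a table of 43629 gene IDs, of which 29585 had counts. A total of 31 of the 32 had at least 1 count, 15 had enough counts to be tested, and 12 had a mean of at least 1 CPM (counts scaled to a common library size). RNA was isolated from mouse cortical neuronal cultures and sequenced after poly(A) enrichment. In all 18 cultures a lentivirus was added at 7 days in vitro and the cells were collected 10 days later. The mSc group (6 libraries) overexpressed mScarlet, a red fluorescent protein that served as control, the Psmb5 group (6 libraries) the β5 subunit of the standard proteasome, and the Psmb8 group (6 libraries) its interferon-inducible counterpart. Strain, promoter and age of the mice were not stated in the labels. One text field of the labels names an Ifng construct for every sample, whereas the treatment tags name the 3 constructs above.

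Blood vessels of the brain consist of endothelial cells joined by tight junctions, of mural cells (pericytes and smooth muscle) wrapped around them, and of a basement membrane between both and the surrounding astrocyte endfeet. Endothelial cells receive growth signals through receptors for VEGF and angiopoietins, and they attract pericytes with the ligand PDGF-B, which binds the receptor Pdgfrb. Fibroblasts lie in the meninges and along larger vessels and secrete fibrillar collagens and small leucine-rich proteoglycans. Neurons and glia also make part of the brain's matrix.

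Depth was similar between groups, with 15337511 to 21074229 counts per library in mSc, 16055974 to 19640543 in Psmb5 and 16091906 to 18630396 in Psmb8. Overexpression was seen at the gene level in every library: Psmb5 was at 238 to 561 CPM in the Psmb5 group against 41.0 to 51.1 CPM elsewhere, and Psmb8 was at 546 to 1056 CPM in the Psmb8 group against 0.488 to 19.4 CPM elsewhere. Each group carries the replicate numbers 1 to 6, and same-numbered libraries deviated from their group means together. What a number stands for is not stated, nor whether libraries come from separate animals, so the p-values reflect how far these libraries vary and no more.

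The label of the list did not hold for its endothelial genes, most of which were at or near 0, and several mural and fibrillar collagen genes also had few counts. Endothelial genes summed to 1.88 to 3.45 CPM over 11 genes, with group ranges of 2.31 to 3.29 CPM in mSc, 2.25 to 3.40 CPM in Psmb5 and 1.88 to 3.45 CPM in Psmb8. The most defining of them were the lowest. Cldn5, the main tight junction claudin of brain endothelium, had 0 counts among 320047415 over all libraries, which allows a level of up to 0.0094 CPM. Cdh5 (VE-cadherin) had 10 counts in all, Tie1 (an orphan receptor of the angiopoietin system) 5 and Emcn (endomucin, an endothelial sialomucin) 4, and none of these 3 exceeded 3 counts in a library. The receptors for VEGF were little higher, with 122 counts in all for Flt1 and 68 for Kdr, and Tek, the angiopoietin receptor, had 128. The blood-brain barrier transporters Abcb1a and Slco1a4 had 98 and 31 counts. Only Pecam1 (CD31) and Esam, both adhesion molecules, could be tested. Pecam1 had 8 to 21 counts per library and a mean of 0.763 CPM, and Esam had 0 to 18 counts and a mean of 0.498 CPM.

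Among the 8 mural genes, 2 were nearly absent as well. Acta2, smooth muscle α-actin, had 5 counts in all, and Kcnj8, the pore subunit of the pericyte potassium channel, had 1. Abcc9, the regulatory subunit of that channel, had 42 counts and Vtn, the secreted protein vitronectin, had 45. Pdgfrb, Rgs5 (a regulator of G-protein signalling typical of pericytes), Tagln (the actin-binding protein SM22) and Myl9 (a myosin regulatory light chain) could be tested. Pdgfrb was the highest of the 8, at a mean of 7.67 CPM and a range of 2.08 to 19.5 CPM.

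Of the fibrillar collagens, Col1a2 had 62 counts and Col3a1 had 28, and Col1a1 was tested at a mean of 1.27 CPM. The leucine-rich proteoglycans split: Dcn (decorin) reached 13.7 CPM on average, whereas Lum (lumican) had 68 counts in all and Bgn (biglycan) had 48. Dcn and Lum lie 46984 bases apart on chromosome 10. The highest total counts were those of Cspg5, Sparc, Col4a2, Col4a1 and Fn1, followed by Dcn, the mural gene Pdgfrb and Lama2, and the list is described below by its genes rather than as a set of vascular cells.

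Levels were compared between genes per kilobase of exon (RPKM, over 18 libraries, with exon lengths and the coordinates given here from GENCODE's annotation of GRCm38). Sparc, a secreted collagen-binding protein (chr11:55394500-55423183, minus strand), led at 50.6 ± 10.3 RPKM (SD, n = 18). Cspg5 followed at 38.3 ± 7.75 RPKM (SD, n = 18). It encodes neuroglycan C, a chondroitin sulfate proteoglycan of brain cells and not a mural or fibroblast protein, and lies at chr9:110243783-110262576 on the plus strand. Sparc lay above 94.7% and Cspg5 above 92.2% of the tested genes. The basement membrane collagens Col4a2 and Col4a1 came next, at 17.4 ± 3.35 and 14.8 ± 2.06 RPKM (SD, n = 18), above 80.8% and 77.5% of the tested genes.

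A wide step separated these 4 from the rest. Fn1 (fibronectin) was at 2.86 ± 0.811 RPKM, Dcn at 2.35 ± 0.810, Igfbp7 (a secreted growth factor binding protein of vessels) at 1.58 ± 0.389 and Pdgfrb at 1.40 ± 0.879 RPKM (SD, n = 18 for each). Tagln, Rgs5, Myl9, Lama2 (the α2 chain of laminin), Col1a1, Esam and Pecam1 ranged from 0.689 down to 0.122 RPKM on average, and the other 17 listed genes were under 0.1 RPKM. Neighbours in this order overlapped in their ranges over the libraries except at 2 places, between Cspg5 and Col4a2 and between Col4a1 and Fn1.

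**Figure D1:**
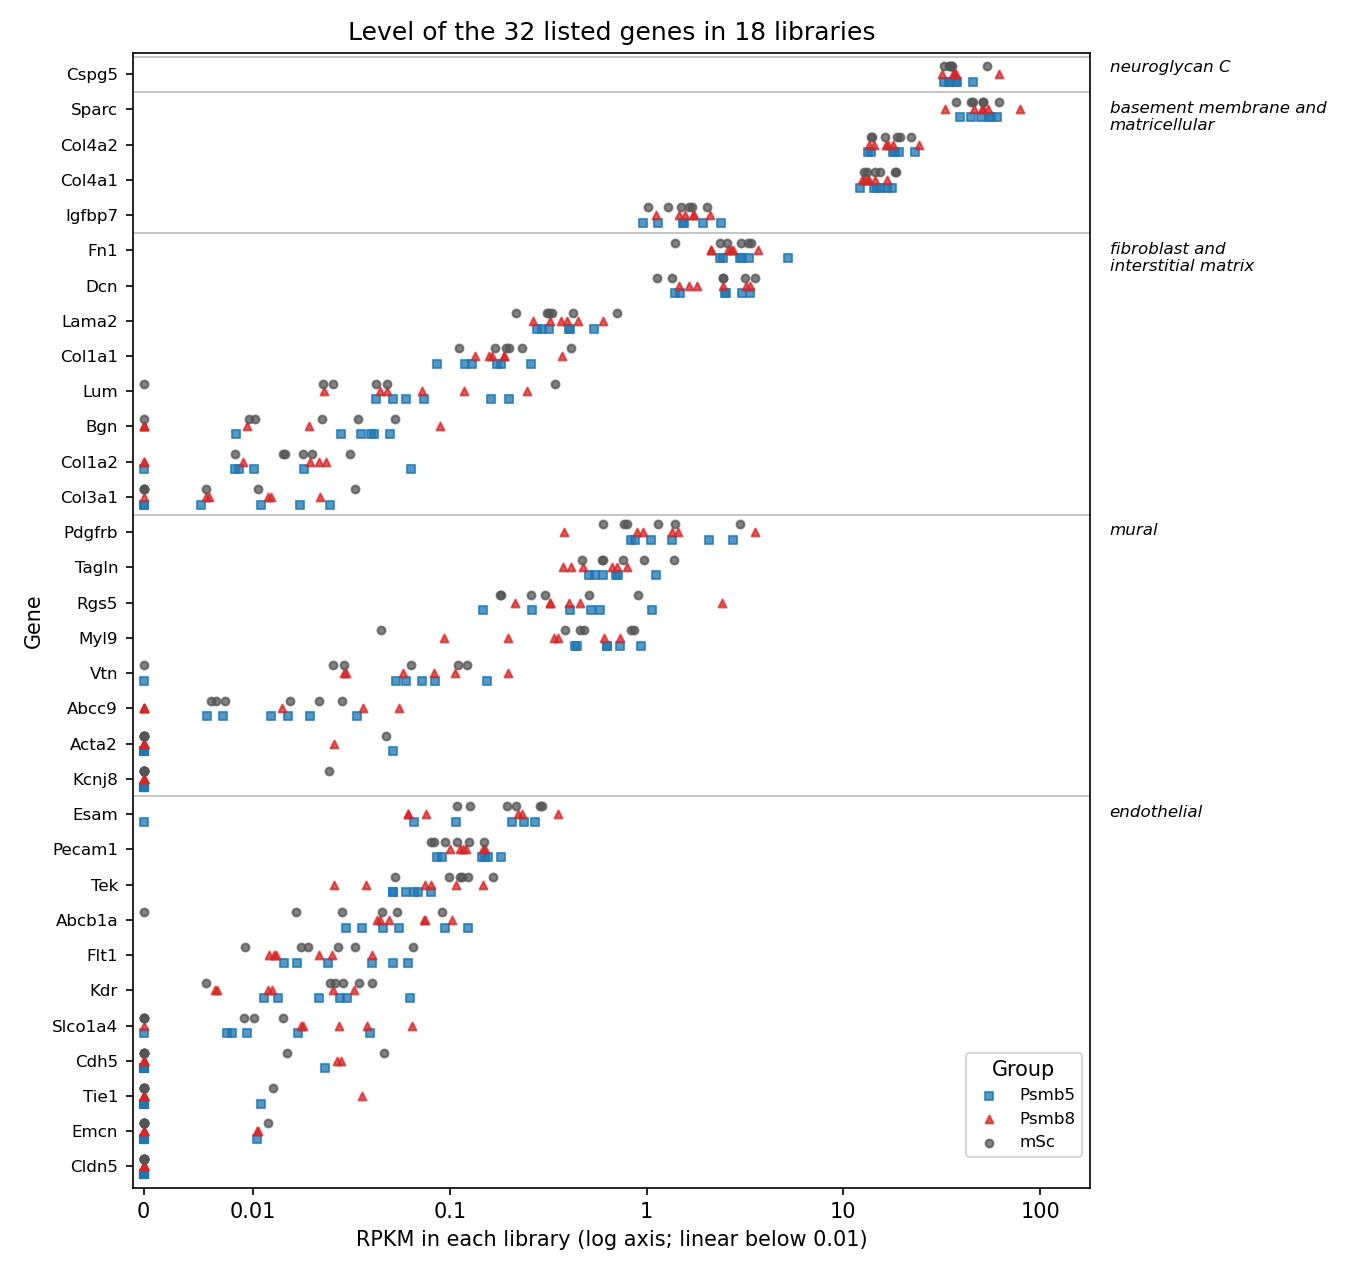
Level of each listed gene in each of the 18 libraries in RPKM (horizontal log axis, linear below 0.01), with 1 row per gene arranged by role and 1 point per library, coloured by group. Sparc, Cspg5, Col4a2 and Col4a1 lie above 10 RPKM in every library, while Cldn5, Emcn, Tie1, Cdh5, Kcnj8 and Acta2 lie at or near 0.

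Col4a1 and Col4a2, whose chains assemble into the same collagen IV trimer, are neighbours on chromosome 8 that point away from each other (chr8:11198423-11312826, minus strand, and chr8:11312805-11449287, plus strand). Their annotated ends overlap by 22 bases, and the strand setting of the counting is not known. The ratio of Col4a1 to Col4a2 in RPKM had a median of 0.871 in mSc (range 0.812 to 1.06), 0.861 in Psmb5 (0.771 to 1.07) and 0.831 in Psmb8 (0.689 to 0.948). The 3 ranges overlapped.

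Smooth muscle genes are known targets of Srf, a transcription factor that binds the CArG box, in which a run of A and T lies between CC and GG. The promoters of the low contractile genes and of Srf are shown because Srf itself was well expressed, at 62.2 CPM (range 57.2 to 70.9), while Acta2 had 5 counts and Myl9 a mean of 0.593 CPM. Myocd, the smooth muscle cofactor of Srf, had 15 counts over all libraries. Sequences are RefSeq's on GRCm38.p6, read 5′ to 3′ on the gene's strand, with the box in capitals and 10 bases on each side.
Acta2, 84 bases before the start, chr19:34255438-34255467: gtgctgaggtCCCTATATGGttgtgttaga
Acta2, 34 bases before the start, chr19:34255388-34255417: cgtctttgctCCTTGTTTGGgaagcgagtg
Myl9, 161 bases before the start, chr2:156775293-156775322: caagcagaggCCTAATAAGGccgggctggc
Myl9, 99 bases before the start, chr2:156775355-156775384: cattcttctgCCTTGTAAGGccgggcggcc
Srf, 82 bases before the start, chr17:46556225-46556254: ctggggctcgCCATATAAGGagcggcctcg
Srf, 62 bases before the start, chr17:46556205-46556234: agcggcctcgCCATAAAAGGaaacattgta
The first box of Myl9 and both of Srf are exact, and the others hold 1 G or C within the run. The box was searched on both strands in the 250 bases before the start. Of the listed genes 22 matched an entry in the promoter table, and 2 of these (Myl9 and Lama2, 9.09%) held an exact box against 1.47% of all 32851 promoters. With 1 G or C allowed the box was found in 6 of 22 (27.27%) against 8.59%. Tagln had no entry, so its promoter was neither searched nor shown. A match describes the letters only.

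The comparison of the Psmb5 group with mSc asks whether the standard proteasome subunit changes these genes. No listed gene was called higher or lower in edgeR's quasi-likelihood test at an adjusted p under 0.05, either without the replicate number (0 of 15, against 0.00638% of all tested genes) or with the number as a block (0 of 15, against 0.00638%). At an unadjusted p under 0.05 there was none in either fit, against 0.944% of the 15671 tested genes without and 6.87% with the block. The median log2 fold change of the 15 was 0.03 without and 0.05 with the block, beside 0.00089 and 0.0018 for all tested genes. All 15 overlapped between the groups, and 0.0319% of tested genes did not. With the block the abundant genes had narrow intervals: Cspg5 changed by -0.01 on the log2 scale (95% interval -0.11 to 0.10), Col4a1 by -0.02 (-0.10 to 0.07), Col4a2 by 0.01 (-0.07 to 0.10) and Sparc by 0.07 (-0.05 to 0.19). Low genes left wider ranges, such as -1.36 to 0.47 for Esam and -0.17 to 0.94 for Rgs5. Fn1, at 16.3, 32.6 and 39.9 CPM in mSc (lowest, median, highest) and 27.7, 35.2 and 61.3 CPM in Psmb5, differed by 0.25 (SE 0.17, adjusted p = 0.803 in edgeR with the block) and was higher in 3 of 6 same-numbered pairs.

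Between Psmb8 and mSc, the contrast of the immunoproteasome subunit with the control, again 0 of 15 listed genes were called, against 0.00638% of the tested genes without the block and 0.325% with it. Their median log2 fold change was -0.0056 without and 0.01 with the block, beside 0.00045 and 0.00081 for all tested genes. At an unadjusted p under 0.05 there were 0 of 15 without the block, against 2.17% of tested genes, and 3 of 15 with it, against 10.7%. These were Col4a1, Rgs5 and Tagln. All 15 overlapped between the groups, and 0.121% of tested genes did not.

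Col4a1 had 94.6, 112 and 138 CPM in mSc (lowest, median, highest) and 92.5, 99.7 and 124 CPM in Psmb8. It was lower in 5 of 6 same-numbered pairs, although the groups overlapped. The log2 fold change with the block was -0.15 (SE 0.04, 95% interval -0.24 to -0.07), and edgeR's adjusted p was 0.129. DESeq2 with the same block gave an adjusted p of 0.0451, adjusted over 7215 genes of which 5 were listed, and edgeR with the block and no filter gave 0.0287 over 29585 genes. Col4a2 differed by -0.02 (95% interval -0.11 to 0.06) in the same comparison, and the difference between these 2 genes was not tested.

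Tagln had 0.936, 1.35 and 2.73 CPM in mSc and 0.749, 1.14 and 1.58 CPM in Psmb8. It was lower in 6 of 6 same-numbered pairs, as were 2.5% of all tested genes. The log2 fold change with the block was -0.47 (SE 0.22), with an adjusted p of 0.447 in edgeR, and each library held only 13 to 60 counts.

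Rgs5 had 0.819, 1.29 and 4.14 CPM in mSc and 0.973, 1.66 and 11.0 CPM in Psmb8. The groups overlapped, and 1 library, Psmb8 replicate 1, stood far above the others. The log2 fold change was 0.83 (SE 0.59) without the block and 0.66 (SE 0.26, adjusted p = 0.352 in edgeR) with it, higher in 4 of 6 pairs. Without that library the value was -0.16, and with the block and without number 1 it was 0.31.

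In Psmb8 against Psmb5, 0 of 15 listed genes were called, against 0.0128% of the tested genes without the block and 0.0383% with it. The median was -0.04 without and -0.03 with the block, beside 0.00065 and -7.4e-05 for all tested genes. Col4a1 was the only one of the 15 at an unadjusted p under 0.05 with the block, against 7.64% of tested genes, and there was none without it, against 1.33%. All 15 overlapped between the groups, and 0.0893% of tested genes did not. The log2 fold change of Col4a1 was -0.14 (SE 0.04) with an adjusted p of 0.369 in edgeR, and it was lower in 5 of 6 pairs. Both comparisons with Psmb8 use the same Psmb8 libraries. Myl9, at 0.503, 0.731 and 1.08 CPM in Psmb5 and 0.108, 0.404 and 0.850 CPM in Psmb8, was lower in 6 of 6 pairs, as were 2.23% of tested genes. The groups overlapped, and the change of -0.72 (SE 0.36, adjusted p = 0.680 in edgeR with the block) rests on 8 to 20 counts per library in Psmb5 and 2 to 14 in Psmb8.

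**Figure D2:**
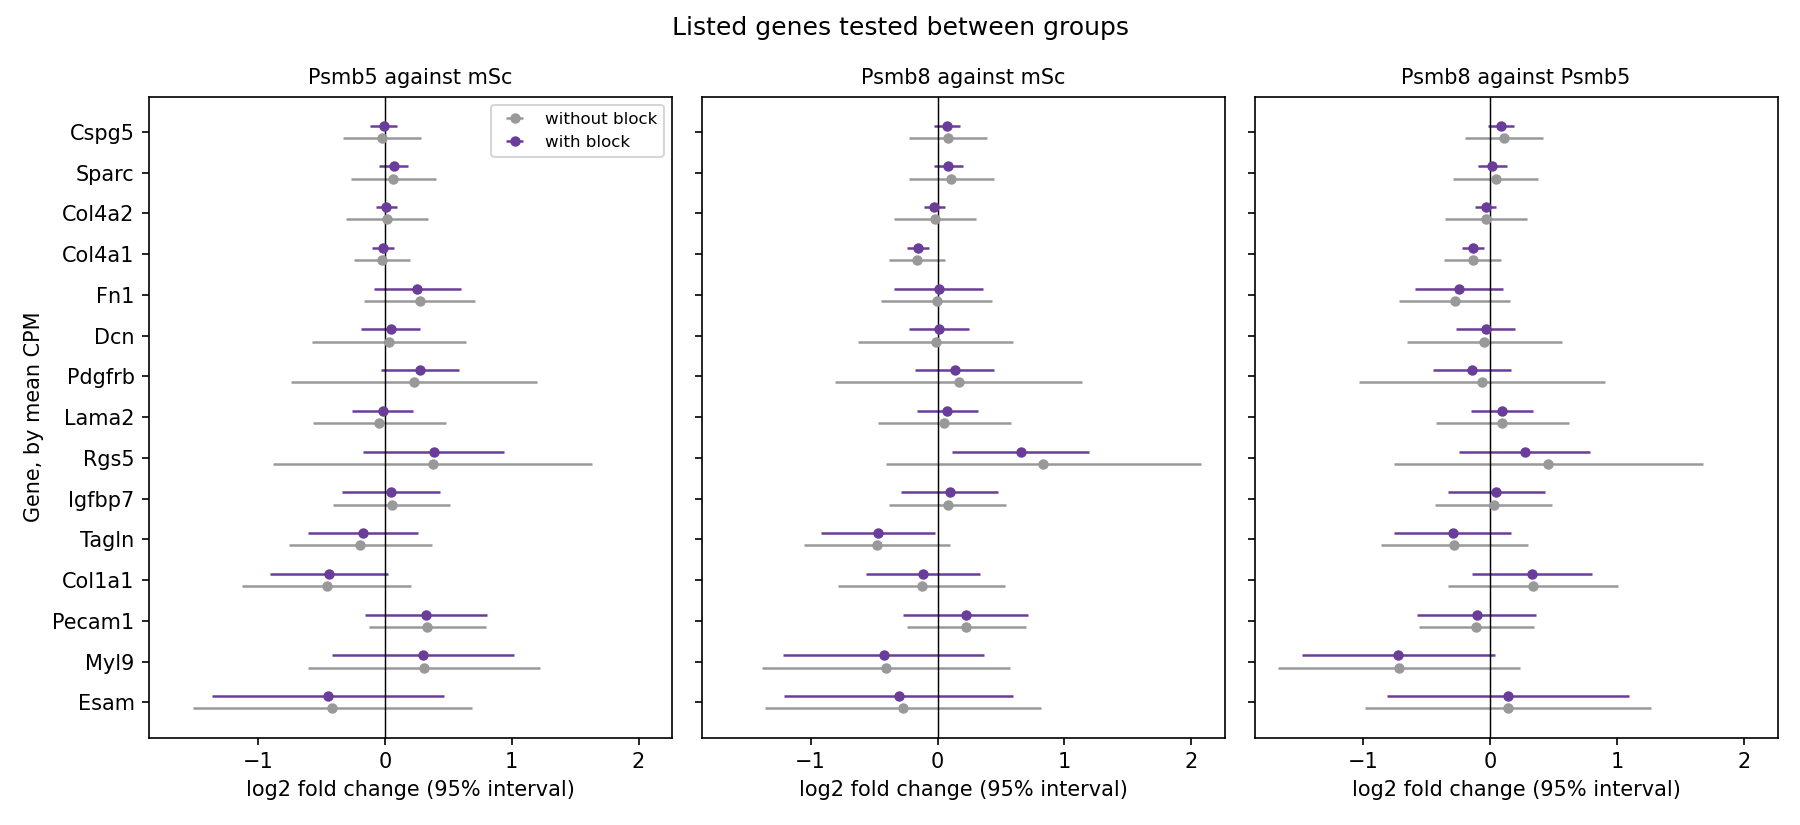
Log2 fold change of the 15 tested genes (horizontal axis, with 95% intervals) in the 3 comparisons between groups, without (grey) and with (purple) the replicate number as a block, genes ordered by mean CPM. Nearly all intervals include 0; with the block, those of Col4a1 in both comparisons with Psmb8 and of Rgs5 and Tagln against mSc do not, but no adjusted p is under 0.05.

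The replicate number, unlike the group, separated the listed genes. Each number occurs once in each group, so the 6 numbers were compared over 3 libraries each, with group as a covariate. A total of 10 of the 15 tested genes differed between numbers in edgeR's quasi-likelihood test at an adjusted p under 0.05, against a background of 64.3% (10078 tested genes), so the share of the listed genes lay near that of all genes. The median log2 range over the numbers was 0.90 for the 15 beside 0.42 for all tested genes. Many of the 15 had few counts, which widens such a range, and genes of matched level were not compared. The abundant Col4a1, Cspg5, Col4a2 and Sparc had ranges of 0.51, 0.70, 0.75 and 0.87. All 10 called genes had their highest mean in number 1, and the share of all called genes that did was not computed. The lead was small for Dcn (19.4 against 18.9 CPM in number 2) and Tagln (1.83 against 1.80 CPM in number 5). For 6 of the 15, Rgs5, Pdgfrb, Cspg5, Col4a2, Lama2 and Sparc, the 3 libraries of number 1 lay above all other 15, against 5.96% of tested genes. The lowest number was 4 for 5 of the 10 and 6 for 3 of them. With number 1 left out, 8 of the 15 were called, beside 8787 of all 15723 tested genes. With numbers 3 and 6 left out, 9 were called, beside 8095 of 15705.

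The mural genes Rgs5 and Pdgfrb had the widest log2 ranges of the 15, at 2.69 and 2.21. The other 2 tested mural genes, Myl9 (not called) and Tagln, were at 1.47 and 0.90. Pdgfrb was at 16.3, 15.1 and 19.5 CPM in number 1 (mSc, Psmb5, Psmb8) and between 2.08 and 11.3 CPM in the other 15 libraries. Its mean in number 1 was 4.62-fold that in number 4 (17.0 ± 2.29 against 3.68 ± 1.39 CPM, SD, n = 3, adjusted p = 6.1e-08 in edgeR). All 3 groups thus showed the same high number, with no overlap with the rest. Number 5 came next, at 6.28, 11.3 and 7.91 CPM.

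Rgs5 was at 4.14, 4.82 and 11.0 CPM in number 1 and between 0.668 and 2.64 CPM in the others. The mean in number 1 was 6.72-fold that in number 6 (adjusted p = 3.9e-06 in edgeR), and without number 1 the adjusted p was 0.0592. Tagln was at 1.94, 2.22 and 1.33 CPM in number 1 and at 2.73, 1.09 and 1.58 CPM in number 5, and its groups of numbers overlapped. Its adjusted p was 0.0431 in edgeR, the weakest of the 10, and the call was lost without number 1, 2, 4 or 6 (0.0507 to 0.107). Myl9, with an adjusted p of 0.117 in edgeR, was not called.

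Among the basement membrane genes Col4a2 gave the smallest p of the 15 (adjusted p = 3.7e-09 in edgeR). It was at 146, 153 and 160 CPM in number 1, at 91.3, 91.7 and 89.2 CPM in number 4 and at 92.8, 88.7 and 94.3 CPM in number 2. Numbers 3, 5 and 6 lay between these, at 107 to 129 CPM, so the spread within a number was small beside the distance between numbers. Col4a1 followed a similar order with a smaller step, at 138, 133 and 124 CPM in number 1 and 94.6, 90.6 and 92.5 CPM in number 2 (1.42-fold, adjusted p = 2.6e-06 in edgeR). The 3 libraries of number 2 lay below all others for Col4a1, as they did for 2.86% of tested genes.

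Sparc was at 233, 228 and 299 CPM in number 1 and at 141, 149 and 125 CPM in number 4. The ratio of these means was 1.83-fold (adjusted p = 3.6e-07 in edgeR), and number 4 lay below all other libraries, as it did for 2.97% of tested genes. Igfbp7, the last gene of this set, ranged from 1.15 to 2.89 CPM with an adjusted p of 0.131 in edgeR. Cspg5 was at 542, 457 and 620 CPM in number 1, while the other 15 libraries lay between 321 and 382 CPM (adjusted p = 2.9e-07 in edgeR). Without number 1 its adjusted p in edgeR was 0.0419.

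The fibroblast and interstitial matrix genes did not share 1 order. Lama2 was listed with them, although laminin is a protein of the basement membrane. Dcn was at 20.7, 17.8 and 19.6 CPM in number 1 and at 18.4, 19.7 and 18.7 CPM in number 2, but at 6.63, 8.68 and 10.6 CPM in number 3 and at 7.90, 8.14 and 9.58 CPM in number 6 (adjusted p = 1.8e-06 in edgeR). Numbers 1 and 2 were thus high together and numbers 3 and 6 low together, with Psmb8 replicate 4, at 8.53 CPM, as low as these. Lama2 was at 11.6, 8.84 and 9.77 CPM in number 1 and between 3.54 and 7.35 CPM elsewhere (adjusted p = 2.8e-05 in edgeR). Col1a1 was at 2.71, 1.19 and 2.43 CPM in number 1, where only the mSc and Psmb8 libraries were above the rest. Its adjusted p was 0.0091 in edgeR, and 0.233 without number 1. Fn1 was not called between numbers (adjusted p = 0.215 in edgeR), since its libraries differed as much within a number: in number 1 they were at 16.3, 28.7 and 43.2 CPM and in number 4 at 35.1, 61.3 and 30.3 CPM. The endothelial genes Pecam1 (adjusted p = 0.490) and Esam (0.284) were not called in edgeR either.

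**Figure D3:**
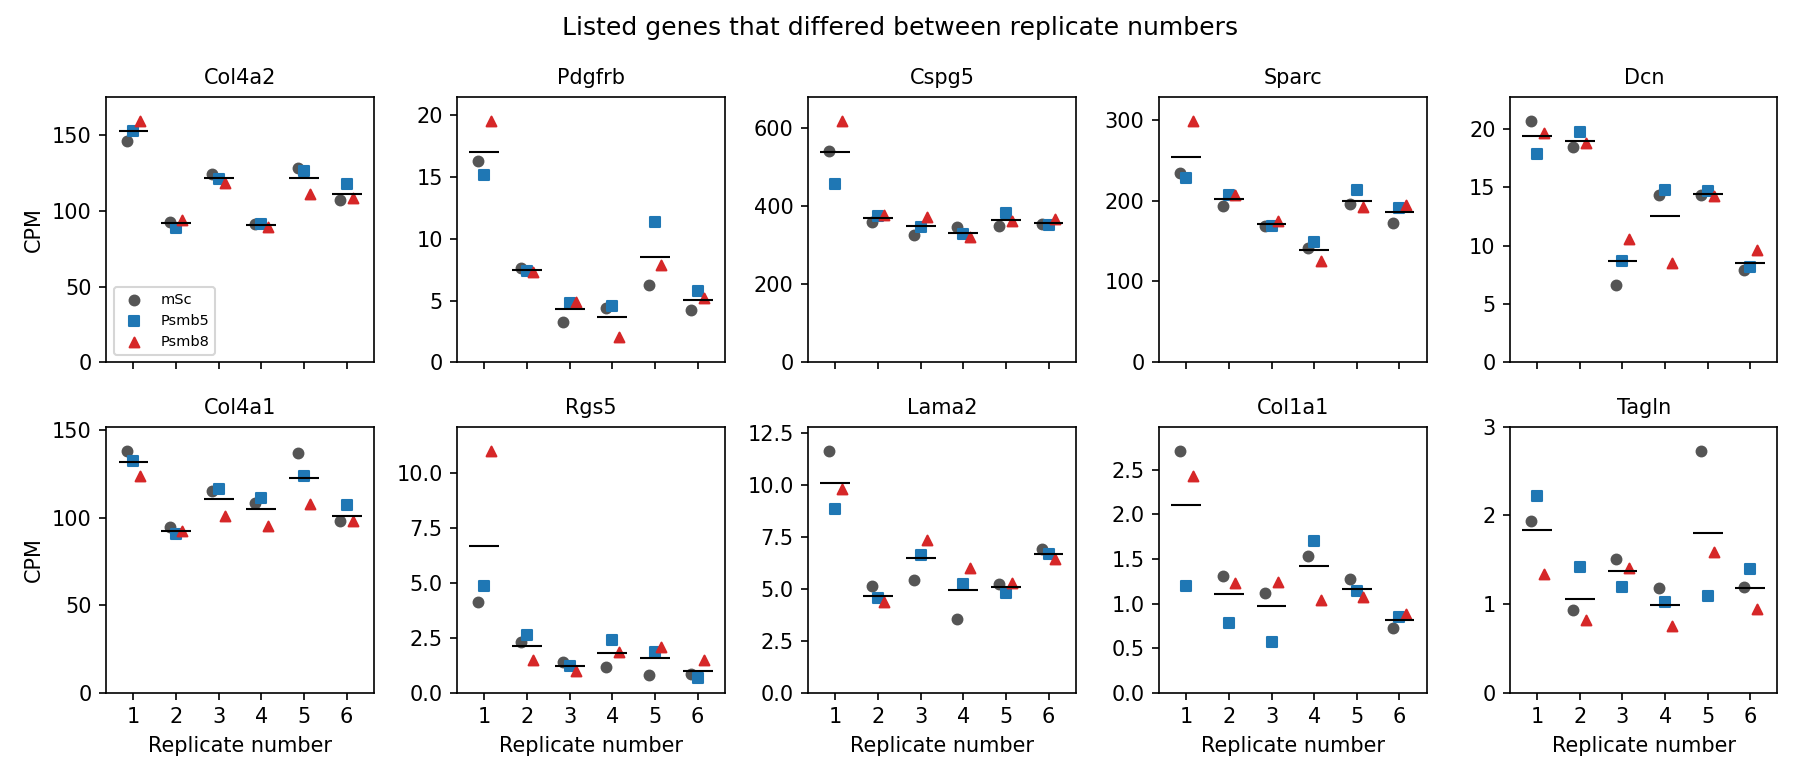
CPM of the 10 listed genes that differed between replicate numbers, by replicate number (horizontal axis), 1 point per library coloured by group, with a bar at the mean of the 3 libraries. Number 1 has the highest mean in every panel, and Dcn is also high in number 2 and low in numbers 3 and 6.

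Markers of other cell types moved with the replicate number too. The counts of called markers below stand beside the 64.3% of all tested genes that differed between numbers. The 16 astrocyte markers, all tested and all called between numbers, summed to 7944 to 9745 CPM in number 1 and to 3259 to 4160 CPM in the other 15 libraries, the same split as for Cspg5. The most abundant of them were Apoe and Slc1a2, at 1744 and 897 CPM on average. By group they ranged from 3518 to 9745 CPM in mSc, 3561 to 8057 CPM in Psmb5 and 3259 to 7944 CPM in Psmb8. Oligodendrocyte lineage markers (11 of 15 tested, all 11 called between numbers) summed to 793 to 1047 CPM in number 1, 730 to 1169 CPM in number 4 and 251 to 455 CPM in numbers 3 and 6, with Olig1 and Pdgfra the most abundant. Their ranges were 267 to 1047 CPM in mSc, 251 to 1169 CPM in Psmb5 and 266 to 915 CPM in Psmb8. Neuronal markers (13 of 13 tested, all 13 called between numbers, led by Syp and Map2) summed to 5918 to 7872 CPM. Microglia and macrophage markers summed to 34.7 to 52.0 CPM with 3 of 16 tested and all 3 called between numbers, and Tmem119, Ctss and Cd163 had at most 3 counts in every library. Choroid plexus and ependymal markers (3 of 8 tested, 1 called) summed to 7.80 to 13.4 CPM and those of cycling cells (10 of 10 tested, all 10 called) to 69.3 to 209 CPM. The part of these cell types in the levels of the listed genes was not tested. In bulk RNA, fewer cells of a type and less RNA per cell cannot be told apart.

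The listed roles compared with this as follows. Mural genes summed to 23.5 to 33.1 CPM in number 1 and to 5.77 to 14.9 CPM in the others. Pdgfrb (15.1 to 19.5 CPM) and Rgs5 (4.14 to 11.0 CPM) made up most of the mural sum in number 1. Tagln and Myl9 in number 1 overlapped the other libraries. The basement membrane and matricellular genes summed to 515 to 585 CPM in number 1 against 311 to 466 CPM. Endothelial genes summed to 2.61 to 2.98 CPM in number 1, inside the range of the other libraries (1.88 to 3.45 CPM). The interstitial matrix genes, at 53.2 to 76.5 CPM in number 1, overlapped the others as well. Their highest sum, 83.9 CPM, was in Psmb5 replicate 4, where Fn1 alone was at 61.3 CPM.

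**Figure D4:**
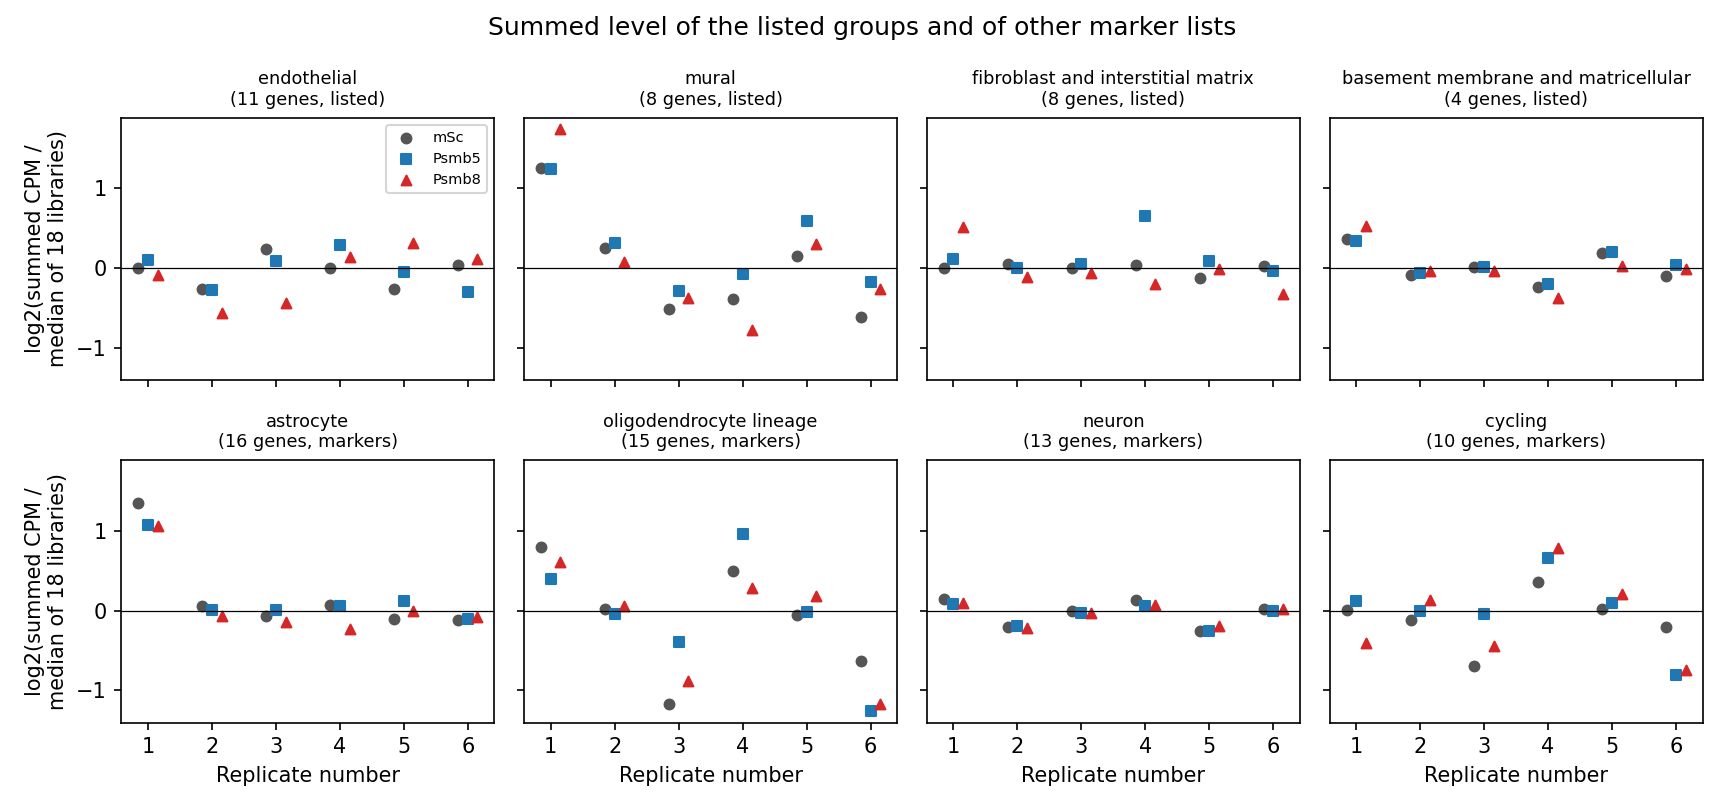
Summed CPM of 4 roles of the listed genes (top) and of 4 other marker lists (bottom) by replicate number, as log2 of the ratio to the median of the 18 libraries, 1 point per library coloured by group. The sums of mural genes (mostly Pdgfrb and Rgs5), basement membrane genes and astrocyte markers are highest in number 1. That of the oligodendrocyte lineage is highest in numbers 1 and 4, while endothelial genes overlap between numbers.

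Other genes of these pathways were looked at in 4 lists, and none was called in any of the 3 comparisons between groups, with or without the block. Median log2 fold changes of these lists with the block lay between -0.08 and 0.06. Between replicate numbers, 16 of the 20 tested genes of vascular growth factor signalling (25 listed) were called, and this count and those of the next 3 lists stand beside the 64.3% of all tested genes that differed between numbers. Vegfa, the main endothelial growth factor, was at 168 CPM on average and Nrp2, a coreceptor, at 88.1 CPM. S1pr1, a sphingosine phosphate receptor, had a mean of 137 CPM in number 1 and 35.2 to 52.9 CPM in the other numbers. The ligand Vegfd ranged from 5.44 CPM in number 3 to 17.1 CPM in number 2. Pdgfb, the ligand of Pdgfrb, had a mean of 83.9 CPM, but is named here after its value was seen.

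Of the other endothelial genes, 9 of 14 tested (21 listed) differed between numbers. The highest were Tjp1, a junction scaffold, at 83.1 CPM and Slc2a1, the glucose transporter of the barrier, at 77.9 CPM. Ly6c1, Sox17, Sox18 and Icam2 had at most 3 counts in every library. In contrast, 13 of the 21 had a mean of at least 1 CPM. Among these were Podxl at 18.2, Mfsd2a at 15.5, Egfl7 at 12.8 and Plvap at 7.90 CPM. Itm2a, a membrane protein, went from 2.81 CPM in number 6 to 8.39 CPM in number 2, and Cd34, a sialomucin of endothelium and progenitors, from 0.849 CPM in number 6 to 2.62 CPM in number 4.

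Other mural genes differed in 7 of 9 tested (17 listed). Tpm1, a tropomyosin, led at 137 CPM and Srf followed. Foxf2 and Foxc1, forkhead factors known from brain pericytes, had an order unlike that of Pdgfrb: Foxf2 averaged 0.834 CPM in number 3 and 0.956 CPM in number 6 but 0.080 CPM in number 1, and Foxc1 1.47, 1.61 and 0.429 CPM in the same numbers. Among other fibroblast and matrix genes 30 of 36 tested (41 listed) differed. Dag1 (dystroglycan, a laminin receptor) averaged 260 CPM and Itgb1 (integrin β1) 143 CPM. Islr, a secreted leucine-rich protein, averaged 9.82 CPM in number 1 and 0.987 CPM in number 3. Pdgfra, a receptor of fibroblasts and of oligodendrocyte precursors, averaged 237 CPM in number 1, 231 CPM in number 4 and 26.5 CPM in number 6.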

How the data were processed

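Poly(A) RNA of 18 libraries was measured. The file deposited by the authors holds unnormalized whole-number counts for Ensembl gene IDs, 1 column for each library. STAR 2.4, DESeq2 and the builds GRCm39 and mm10 appear in the submitters' processing notes without a role. For the counter, its strand setting, its handling of shared reads and the annotation: not given in the sources used here. Symbols were found for 42462 IDs, and 1167 had none. Exon lengths and coordinates come from GENCODE's GRCm38 annotation, which may differ from the authors' build.

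Genes were filtered with filterByExpr by group (15671 left, with 99.9% of counts or more), scaled by TMM and tested with edgeR 4.0.16 (R 4.3.3) in 1 quasi-likelihood fit of all libraries, adjusted by Benjamini-Hochberg over all tested genes at 0.05. The replicate number was added as a block or tested with group as covariate. Deviations from group means correlated in all 18 same-numbered pairs (r 0.45 to 0.73) and averaged -0.12 over 90 other pairs (range -0.54 to 0.65), so numbers were taken to pair the libraries. The common coefficient of variation was 17.9% without and 5.94% with the block. Within groups no libraries were duplicates (chi-square per degree of freedom 2.94 to 38.4 over 45 pairs). A count of 1 in a library was worth about 0.05 to 0.06 CPM.

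Alternatives were DESeq2 1.42.0, its size factors, other count filters, fewer groups and libraries left out. The genes and lists were chosen with earlier results of these data known. All 32 genes are accounted for, those at 1 CPM or more with values. Of each pathway list the 2 most abundant genes and the 2 with the widest range over the numbers among those called are named, and of other cell types the most abundant and those at or near 0. Pdgfb, Myocd, Podxl, Mfsd2a, Egfl7, Plvap and the pathway genes near 0 were named after their values were seen. Some list genes are not reported here by name. The scripts were tested on simulated data with 200 genes changed 2-fold. The test between replicate numbers recovered 87.5% of them, and 9.33% of its calls were false, above the 5% aimed at. Psmb8 against mSc recovered 80.5% without and 94.5% with the block, with 4.73% and 4.06% of calls false. The simulation of numbers changed genes in number 1 only, and the one without the block held no shared number effect. In the data 64.3% of tested genes differed between numbers, so these rates need not hold for them.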

Additional observations from a re-analysis of the deposited data

Results flagged for a closer look

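Of 45 sets of 6 libraries (15 tested genes in 3 groups), 5 had a library far from the others. In these the gap to the next library was more than 0.625 of the whole range, both taken on log2 CPM. The values below are in CPM, on which the rule would pick other sets. Chance gives about 1 in 20. In 4 of the 5 the library was replicate 1. Rgs5 was at 11.0 CPM in Psmb8 replicate 1 and at most 2.09 CPM in the other Psmb8 libraries. Cspg5 was at 542 CPM in mSc replicate 1, with the next at 361 CPM, and at 620 CPM in Psmb8 replicate 1, with the next at 377 CPM. Col1a1 was at 2.43 CPM in Psmb8 replicate 1, with the next at 1.24 CPM. The low one was Myl9, at 0.052 CPM in mSc replicate 6, which is 1 count, with the next at 0.446 CPM.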

How the results depend on the processing

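None of the 15 listed genes was called in a comparison between groups under any alternative run without the block: DESeq2, its size factors, no filter, a mean of 1 CPM, only the groups compared and each library left out. The replicate block also gave 0 in all 3 comparisons, as it did with each number left out. Settings chosen after seeing the data gave calls. DESeq2 with the replicate block called 1 gene in Psmb8 against mSc (Col4a1), and its count of calls over all genes is not given here. With the block and no filter, edgeR called 1 in Psmb5 against mSc (Fn1), 2 in Psmb8 against mSc (Col4a1 and Rgs5) and 1 in Psmb8 against Psmb5 (Fn1), of 31 listed genes tested. Over all 29585 genes that setting called 140, 321 and 166 in the same order, against 1, 51 and 6 with the filter. The cause was not tested. The number of listed genes that differ between replicate numbers was 10 of 15, beside 64.3% of all tested genes. Over the alternatives it was 8 to 13, and most shares of all genes under these are not given here. The 13 came under no filter, where 31 listed genes were tested, and leaving a number out gave 8 to 10. The calls of Col4a1, Col4a2, Cspg5, Dcn, Lama2, Pdgfrb and Sparc held in all alternatives. Tagln was lost with DESeq2 (adjusted p = 0.146), without the mSc group (0.288), without the Psmb8 group (0.196) and without number 1, 2, 4 or 6 (0.0507 to 0.107). Col1a1 was lost without numbers 3 and 6 (0.0604), without the mSc group (0.224) and without number 1 (0.233). Fn1 was called without number 1 (0.0236), without the Psmb8 group (0.00249) and with no filter (1.1e-12), Igfbp7 without the Psmb8 group (0.0303) and Myl9 with no filter (0.0261). Lum, not tested after the filter, was called with DESeq2 and with no filter.

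The sign of the log2 fold change turned in at least 1 setting for 9 of 15 genes in Psmb5 against mSc, 11 in Psmb8 against mSc and 10 in Psmb8 against Psmb5. Of the changes given above, Col4a2 in Psmb5 against mSc was at -0.010 and Esam at 0.077 with the block and without numbers 3 and 6. With 1 library left out and no block, Psmb5 against mSc ranged from -0.071 to 0.037 for Col4a1, -0.076 to 0.094 for Col4a2 and -0.090 to 0.10 for Cspg5. In Psmb8 against mSc the ranges were -0.14 to 0.058 for Col4a2 and -0.16 to 1.27 for Rgs5. With the block and 1 number left out, Col4a1 in Psmb5 against mSc was at 0.010 without number 5, Col4a2 at -0.014 without number 6 and Cspg5 at 0.034 without number 1 and 0.0048 without number 4, and Col4a2 in Psmb8 against mSc was at 0.013 without number 5. Counting error limits Myl9, with at most 22 counts per library, and Esam, with at most 18.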
